A study of Drosophila melanogaster with 3 samples.

Results

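Narrow Yki peaks that lie in dense groups were chosen by their position and width in the deposited interval list. On arms 2L, 2R, 3L, 3R, X and 4, neighbouring intervals were chained where their midpoints were under 10 kb apart, chains of 5 or more intervals were kept as dense groups, and the intervals under 1000 bp wide in them are the narrow peaks described. There were 1066 of them, out of 3990 intervals in the list (26.7%), and they made up 31.2% of the 3414 narrow intervals on the arms. The list and the density track come from chromatin of S2, a long-established fly cell line (Drosophila melanogaster) that was derived from embryos. The cells were grown in Schneider's medium and fixed with formaldehyde in the culture, and no genotype change or treatment is named. The groups are 2 ChIP libraries made with an anti-Yki antibody and 1 input library made with no antibody. Titles, antibody and cell line entries name Yki or input in S2 cells, while their description fields name embryo material, with GAF for the ChIP libraries and Yki for the input. The titles were followed. The deposited files do not separate the libraries. Values therefore carry no replicate error, the agreement of the ChIP libraries cannot be measured, and no number of reads per library is known.

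Yorkie (Yki) is the coactivator at the end of the Hippo pathway, which restrains growth by keeping Yki phosphorylated and in the cytoplasm. Yki has no DNA-binding domain and reaches chromatin through partners such as the TEAD-family protein Scalloped. In the fly it is known for driving growth and survival genes such as expanded, Diap1, Cyclin E and the bantam microRNA. Yki has also been linked to GAGA factor, the Mediator and Brahma complexes, and a histone H3K4 methyltransferase complex. Neighbouring peaks of a chromatin factor can be separate sites or parts of 1 broad stretch that a peak caller has divided, and spacing, height and the density between intervals are the measurements that describe which form a group takes.

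The density score can be read in tags, the mapped positions it was built from. On the arms, 253 short bumps returned to 0 on both sides, and 162 of them lay above 0. From these 162, the 42 with a sum close to the most frequent value were kept. Their common sum of 4.98 over 12 samples was therefore set by the choice, and their highest values ran from 0.97 to 1.00. The 42 bumps were read as single ChIP tags of height 1 that add density up to 600 bp from their centre. This reading was not tested on the other bumps. Bumps below 0 of the most frequent size, 30 in all, had a depth of 0.36, which was read as 1 input tag. Height is the highest density sampled inside an interval. Its counting SD was taken as the square root of 0.71 times the height, a lower bound that leaves out input tags and the spread between libraries. Because list and density come from the libraries that chose the peaks, every comparison below is a description with no test. Brackets on medians are exact binomial 95% intervals, which cover the spread over peaks that are not independent.

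The 1066 narrow peaks lay in 151 dense groups, together with 244 intervals of 1 kb or more. Narrow intervals made up 81.4% of the intervals in the groups, against 86.7% on the arms as a whole. The median group held 7 intervals (quartiles 5 and 9), and the median number of narrow peaks per group was 6. No group was without narrow peaks, and 38 groups held nothing else. The groups covered 3.30 Mb in all, with a median span of 18.8 kb and a range from 3.58 to 98.5 kb. Narrow peaks took up 14.6% of that length and wide ones 11.7%, so most of a group's span lay between intervals.

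Arm 2L had the most narrow peaks in dense groups and X the fewest among the 5 large arms. The counts were 305 on 2L, 269 on 3R, 225 on 3L, 186 on 2R and 81 on X. As shares of the narrow intervals on each arm they were 39.2% on 2L, 31.6% on 3R, 29.8% on 3L, 27.2% on 2R and 23.5% on X. Per Mb covered by the track they ran from 3.61 on X to 13.3 on 2L. Chromosome 4 had none, since its largest group held 4 intervals.

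Just inside and outside the limits of the rule, single values varied and the medians at the width limit were close. The widest narrow peak measured 997 bp and had a height of 462, and the narrowest interval left out for its width measured 1000 bp and had a height of 1128. The 20 narrow peaks of 950 to 999 bp had a median height of 305, and the 25 group intervals of 1000 to 1049 bp had one of 313. The widest spacing kept inside a group was 9990 bp and the closest that ended one was 10006 bp. There were 49 groups of exactly 5 intervals, while 99 groups of 4, with 331 narrow intervals, were left out.

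Narrow peaks of dense groups sat close to a neighbour, most often at 600 to 1000 bp. The median distance from a narrow peak to the nearest midpoint of its group was 1128 bp (1067.5 to 1174). The quartiles were 737 and 2278 bp, and the values ran from 300.5 to 9939 bp. A neighbour under 1 kb away was found for 470 peaks (44.1%), and 81 (7.60%) had none within 5 kb. Of the 1159 neighbouring pairs in the groups, 770 joined narrow intervals, 336 a narrow and a wide one, and 53 wide ones. The median spacing of all pairs was 1824 bp, and that of narrow pairs 1565 bp. Nearest distances of 600 to 800 bp were found for 168 peaks, and those under 400 bp for 40. The chaining distance limits these values from above.

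**Figure D1:**
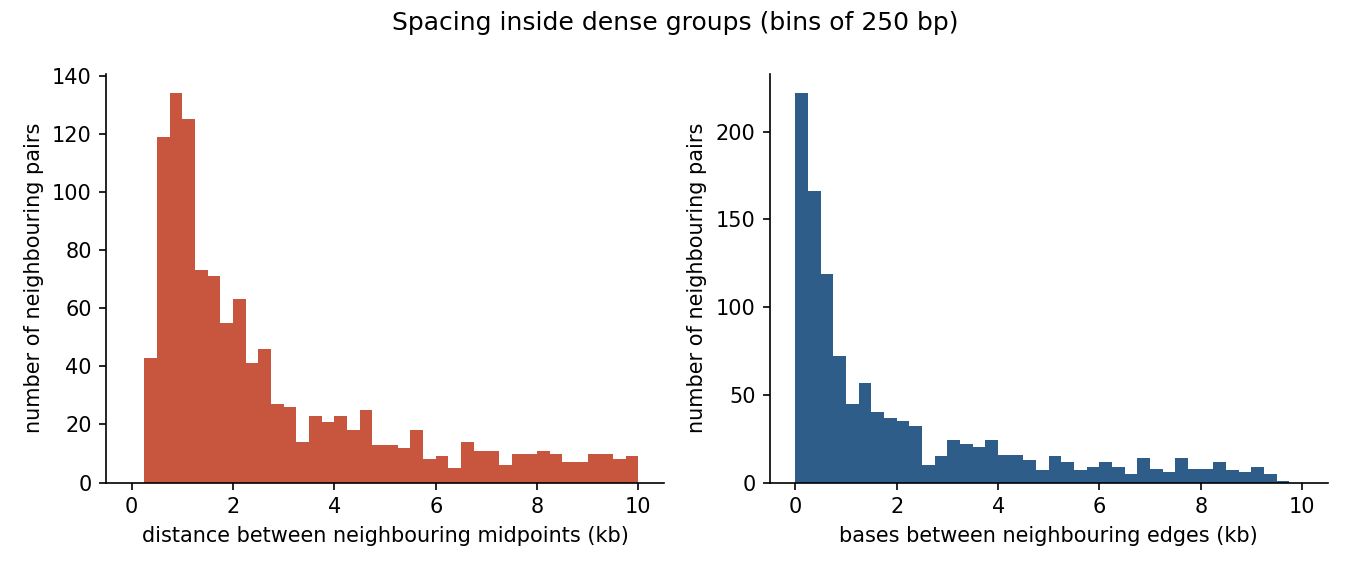
Number of neighbouring interval pairs in dense groups by the distance between midpoints (left) and by the bases between edges (right), both in kb and in bins of 250 bp. Midpoint distances pile up near 1 kb around a median of 1824 bp over all pairs, and edge distances are most frequent at the shortest lengths, starting at 50 bp.

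Many neighbours were separated by very short gaps. The bases between edges had a median of 1007, quartiles of 340 and 3195 and a minimum of 50. Gaps of 500 bp or less made up 388 of 1159 (33.5%), and 82 were under 100 bp. In all, 496 narrow peaks (46.5%) had a neighbour within 500 bp of an edge, and 119 (11.2%) had a wide interval that close. Joining intervals across gaps of up to 500 bp before chaining left 96 dense groups, with 499 narrow members.

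Narrow peaks in dense groups were mostly low. Their median height was 115 tags (111 to 119). The quartiles were 87.1 and 171, and heights ran from 49.1 to 3173. The counting SD at the median height was at least 9.04. Heights below 100 were found for 394 peaks (37.0%), and 101 (9.47%) reached 300 or more. The wide intervals of the same groups had a median of 336 (307 to 391). Width and height moved together among the narrow peaks (Spearman rho = 0.71 over 1066 peaks). The density was smoothed and a wider interval holds more samples, so part of this relation is built in. The median width was 393 bp, 20 peaks had the shortest width of 200 bp, and 65.6% were under 500 bp.

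Isolated narrow intervals, with no other midpoint within 10 kb, were somewhat higher. The 900 of them had a median height of 130 (125 to 137), 15.2 above that of the grouped peaks, and 24.3% were lower than 100. Narrow intervals in groups of 2 to 4 stood between, with a median of 124 (121 to 128) over 1448. Widths were alike, with medians of 408 bp for isolated and 400 bp for small-group intervals. An isolated interval has no higher neighbour in its set by the rule, while 993 of the 1066 grouped peaks were not the highest of their group. The width limit also kept 81.4% of intervals in dense groups, against 86.7% on the arms. The 244 wide intervals it left out of the groups had a median height of 336. Part of the difference may be built in, which was not tested. The arms differed in this comparison. On 2L grouped and isolated medians were 104 (99.7 to 111) and 128 (119 to 139). On 3R they were 115 (105 to 122) and 129 (119 to 140). On 3L they were 119 (111 to 129) and 131 (119 to 149), and on 2R 117 (104 to 129) and 126 (112 to 137). The intervals overlapped on 3R, 3L and 2R and were apart on 2L only. On X the medians lay at 147.9 (136 to 176) and 148.2 (136 to 171). The grouped median was thus lower on 2L, 3R, 3L and 2R, and level on X. The intervals treat peaks that share a group as independent, so their overlap or separation decides nothing about a difference. Whether the arms differ was not tested.

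Many grouped narrow peaks were not the highest point of their own surroundings. For 377 of the 1066 (35.4%), the density within 600 bp of the interval rose above the peak's own height. The count was 26 of 900 (2.89%) for isolated intervals and 306 of 1448 (21.1%) in groups of 2 to 4. Among grouped peaks with a neighbour within 500 bp it was 311 of 496 (62.7%), and among those without 66 of 570 (11.6%). Peaks of both kinds had much the same height, with medians of 113 and 116. A neighbour inside the reach of a tag adds to the density here by construction, and its own samples can fall in the 600 bp window. Isolated intervals have no such neighbour by the rule, so the order of the shares is in part built in.

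Of the 10 highest narrow peaks 7 were the summits of their groups, while of the 101 that reached 300 or more 43 were summits and 58 were not. Narrow peaks were the highest interval in 73 of the 151 groups, with a median height of 332 (288 to 456), and a wide interval was highest in the other 78, with a median of 572. The other 993 narrow peaks had a median of 111 (107 to 115), or 23.1% of the highest interval of their group at the median. On 3L the peak at 616311 to 617300 reached 3173 (counting SD at least 47.5) over 990 bp, in a group of 25 intervals, and the density 600 bp to 5 kb away had a median of 57.9. In the same group the peak at 648478 to 649203, 32.0 kb away, reached 1143 and had a flanking median of 136. Both are high peaks with flanking medians above 0. Other intervals of the group lay within 5 kb of each, so these medians need not describe the density between intervals. Beside the peak at 648478, however, the gap on its higher-coordinate side had a mean density below 0. The next gap on that side held the deepest sample of any group, -520.

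Others of the 10 highest lay in groups of 5 to 22 intervals. The 3L peak at 17556452 to 17557291 reached 1068 in a group of 5, and its nearest neighbour lay 6484 bp away. On 2L the peak at 12586756 to 12587627 reached 934 in a group of 7. On 3R the peak at 5934606 to 5935520 reached 899 in a group of 22. These were the summits of their groups, with flanking medians from 20.7 to 59.9. The 2L and 3R peaks also had other intervals within 5 kb.

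Further down, 3L peaks at 5177570 to 5178432 and at 7859950 to 7860904 reached 868 and 748, and a 3R peak at 6714433 to 6715424 reached 741. Each was the summit of a group of 5. The remaining 2 were second to a higher interval of the same group. The 3R peak at 5253792 to 5254504 reached 764, 90.0% of its group's highest, which lay 9.61 kb away. The 2L peak at 7991284 to 7992043 reached 729.6, 87.7% of the highest, at a distance of 2.53 kb.

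Height changed little with distance from the highest interval of the group. Leaving out the summits, narrow peaks under 5 kb from the highest interval had a median of 110 (105 to 116, 330 peaks), and those over 10 kb away had 106 (102 to 112, 423 peaks), a difference of 3.85. By bins of distance the medians were 107 within 1 kb (35 peaks), 114 at 1 to 2 kb (83), 109 at 2 to 5 kb (212), 117 at 5 to 10 kb (240), 108 at 10 to 20 kb (254) and 107 at 20 to 50 kb (153). Their intervals overlapped, and the quartiles stayed between 79.3 and 165. Beyond 50 kb the median was 90.8, from 16 peaks in 5 groups. Across the 993 peaks Spearman rho of height with distance was -0.03. Peaks share groups, so this describes the profile only.

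Relative to the summit the heights were lower at larger distances, and the summits themselves were higher there. The median share of the summit's height went from 47.3% within 1 kb to 30.6% at 1 to 2 kb, 22.7% at 10 to 20 kb and 15.6% at 20 to 50 kb. Over the same bins the median summit height rose from 278 to 407, 613 and 688. Wide intervals other than the summit had medians of 250, 227, 254 and 259 in the bins from 1 to 20 kb and 344 at 20 to 50 kb, so in these bins they too were not higher near the summit. Peaks at lower and at higher coordinates than the summit had equal medians, 111 (484 peaks) and 110 (509 peaks). Within 1 kb of the summit 32 of 35 narrow peaks were lower than the density within 600 bp of them, against 78 of 254 at 10 to 20 kb. So close to the summit, that window can take in the summit itself, which is higher by definition. The contrast is therefore largely built in.

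**Figure D2:**
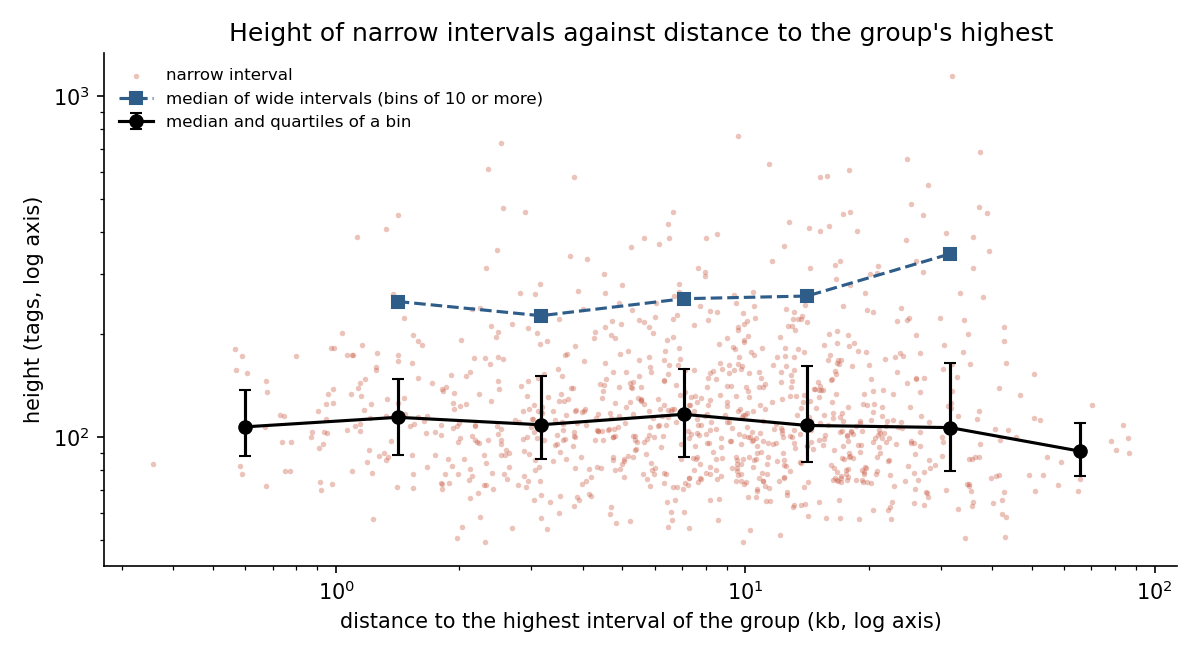
Height of each of the 993 narrow peaks that are not the highest of their group (red points, in tags, log axis) against the midpoint distance to the group's highest interval (kb, log axis). Black points are bin medians with quartiles and blue squares are medians of wide intervals, shown for bins with 10 or more. The black medians lie between 107 and 117 from 0 to 50 kb and at 90.8 beyond.

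Neighbouring narrow peaks often differed in height by more than 2 counting SDs. The median difference between narrow neighbours was 40.8 tags, and in 487 of 770 pairs (63.2%) it was larger than 2 counting SDs. The SD of a difference was taken as if both heights were independent. It leaves out input tags and the spread between libraries. Samples less than 1200 bp apart share tags, however, so for close pairs it is not a lower bound. In the 111 groups with at least 5 narrow peaks, the highest was 3.49 times the lowest at the median, with a range from 1.24 to 62.4. Narrow peaks were highest in the smallest groups and nearly level in the others. Their median height was 125 (118 to 134) in groups of 5 to 6, 111 (105 to 121) in groups of 7 to 9, 111 (101 to 126) in groups of 10 to 14 and 109 (102 to 114) in the 17 groups of 15 or more. These medians include narrow summits, and each group has 1 summit. Summits can weigh more in groups of 5 to 6 (324 narrow peaks in 73 groups) than in the largest (297 in 17). Part of the difference may be built in, which was not tested. Median summits over the same classes were 408, 520, 439 and 753, with no steady rise. The median nearest distance was 1420 bp in groups of 5 to 6, 1288 bp in groups of 7 to 9, 988 bp in groups of 10 to 14 and 999.5 bp in the largest.

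Density between the intervals of a group stayed above 0 in most gaps. Over the 1137 gaps that held a sample, the median of the mean density was 63.0 (59.9 to 65.3; quartiles 35.6 and 92.4). It was below 0 in 56 gaps (4.93%), while single samples below 0 occurred in 268 (23.6%). The lowest sample of a gap had a median of 44.9. In 71 gaps it fell under -100, and the deepest value was -520. By arm the median gap density ran from 60.4 on 3R to 66.2 on X.

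The shorter the gap, the closer its density was to that of the peaks beside it. In gaps of 50 to 200 bp the median mean density was 112, next to a median of 109 for the height of the lower neighbour. At 200 to 500 bp the values were 93.9 and 101, and at 500 bp to 1 kb 76.0 and 102. They were 57.3 and 88.7 at 1 to 2 kb, 35.5 and 101 at 2 to 5 kb, and 18.5 and 102 at 5 kb and more. In 277 of 366 sampled gaps of up to 500 bp (75.7%), the lowest density in the gap lay within 2 counting SDs of the lower neighbour's height. In gaps over 1200 bp, where samples out of reach of tags at both edges occur, this held for 8 of 543 (1.47%). Samples less than 1200 bp apart share tags, so a narrow dip in a short gap is smoothed away and cannot be seen at this resolution.

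Longer gaps had higher median density in dense groups than in groups of 2 to 4, with intervals that stood apart only at 2 to 5 kb. At 1 to 2 kb the medians were 57.3 (54.0 to 60.3, 179 gaps) and 48.7 (44.7 to 54.2, 158 gaps), with a slight overlap. At 2 to 5 kb they were 35.5 (32.0 to 39.1) and 27.8 (24.5 to 30.1). At 5 kb and more the intervals also overlapped, with 18.5 (15.5 to 22.4) and 15.2 (11.8 to 18.2). Below 500 bp the small groups were the higher ones, with 125 (111 to 136) against 112 (107 to 122) in the shortest class, where the intervals overlapped. No test was made of these differences. Samples below 0 occurred in 46.6% of dense-group gaps of 2 to 5 kb and in 61.5% of those in small groups.

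**Figure D3:**
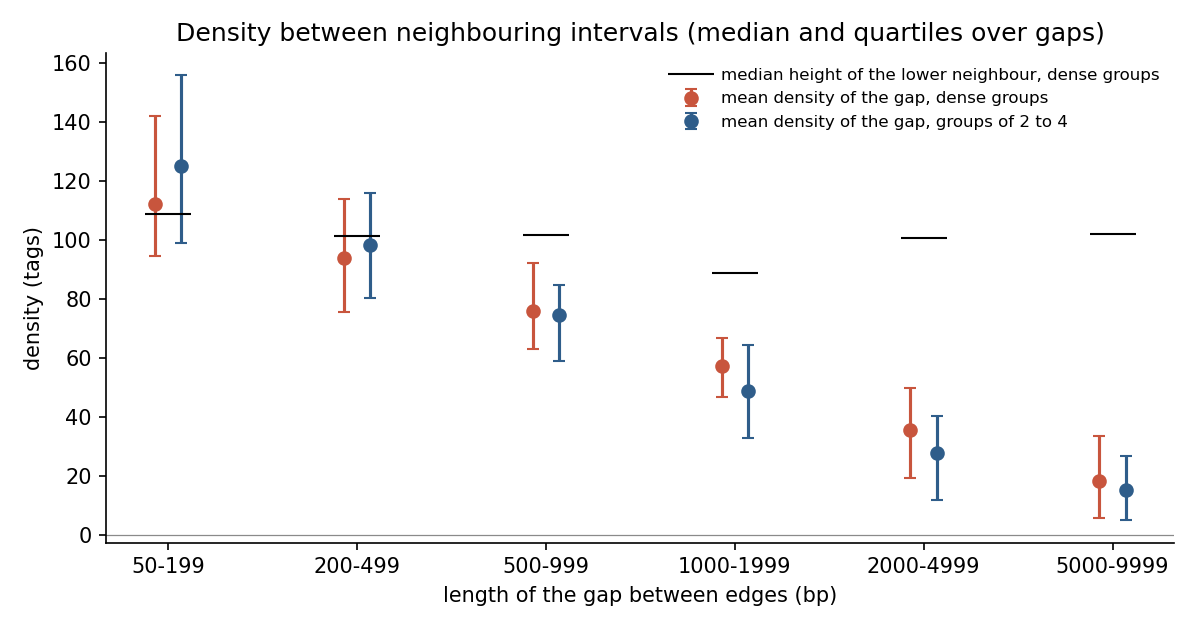
Mean density (tags) of the gaps between neighbouring intervals by gap length (bp), for dense groups (red) and groups of 2 to 4 (blue); points are medians and bars quartiles over gaps. Black dashes are the median height of the lower neighbouring interval in dense groups. The red points fall from 112, at the level of the neighbours, to 18.5, while the dashes stay between 88.7 and 109.

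Out of reach of the intervals' own tags, density was still raised inside dense groups. Samples 600 bp to 5 kb from the nearest interval had a median of 22.2 inside dense groups, 10.6 beyond the ends of these groups and 5.02 around isolated narrow intervals, against 0.30 over all samples of the 5 large arms. The shares below 0 were 25.6%, 36.7% and 41.9%. Per group, the median was 22.6 inside (18.6 to 26.9, 146 groups) and 10.3 beyond the ends (6.77 to 15.6, 151 groups). Around single isolated intervals it was 4.15 (2.71 to 5.48, 900 intervals). It was above 0 inside 121 of the 146 groups. None of these values is matched for distance, and density falls with distance. Inside dense groups 3711 of 15149 samples lay at 600 bp to 1 kb and 343 at 4 to 5 kb. The counts were 1208 and 3005 of 13273 beyond the ends, and 7196 and 17933 of 79099 around isolated intervals. The contrasts are therefore larger than at equal distance.

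The order of the 3 settings was not the same on every arm. On 2L the medians were 27.5 inside, 14.4 beyond the ends and 8.13 around isolated intervals, and on 3R 17.3, 6.45 and 2.50. On 3L they were 19.9, 15.04 and 7.62, and on 2R 19.8, 9.23 and 2.08. On X the values were 26.8, 4.89 and 5.29, so the inside stood apart and the other settings lay together. These arm values are not matched for distance either. At 600 bp to 1 kb the medians over all 5 arms were 31.9, 23.7 and 15.6, and at 3 to 4 kb they were 14.3, 7.19 and 2.64.

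**Figure D4:**
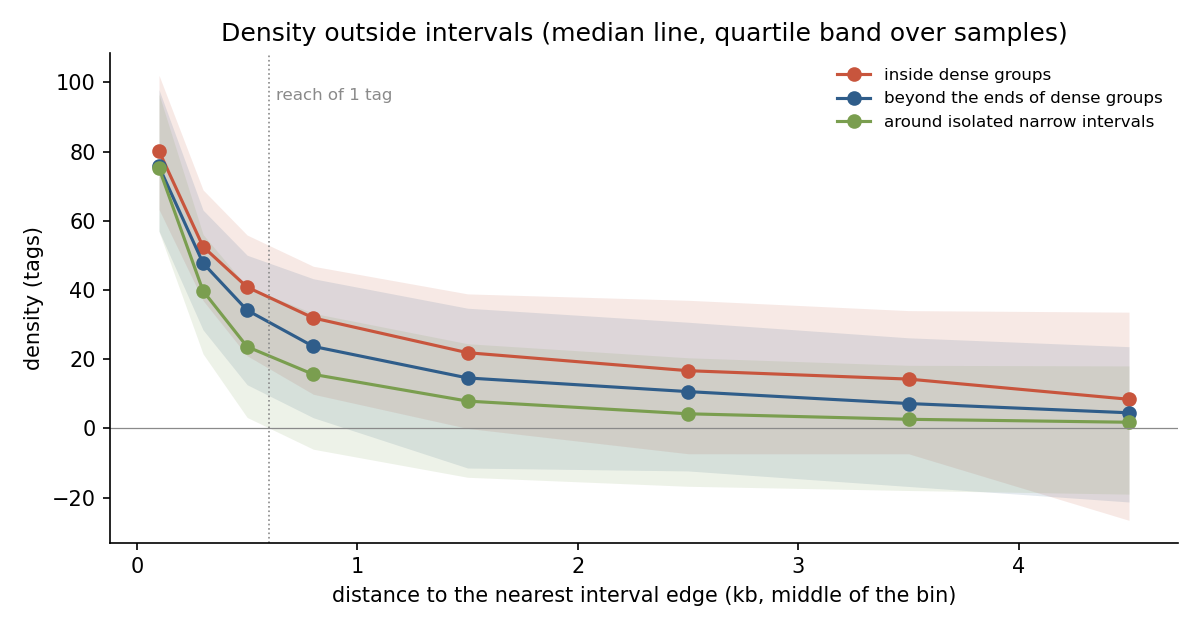
Density (tags) at samples outside intervals against the distance to the nearest interval edge (kb), inside dense groups (red), beyond their ends (blue) and around isolated narrow intervals (green); lines are medians and bands quartiles over samples, and the dotted line marks the 600 bp reach of 1 tag. All 3 lines fall with distance in the order red, blue, green, from 31.9, 23.7 and 15.6 at 600 bp to 1 kb to 14.3, 7.19 and 2.64 at 3 to 4 kb.

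The group with the most narrow peaks spanned 87.3 kb of 2L, from 12459437 to 12546743, and held 30 narrow and 8 wide intervals. Its narrow peaks were mostly low, at a median of 93.2 (quartiles 72.4 and 108), and 20 of 30 lay below 100. A single one reached 200, at 12520880 to 12521641 with a height of 379. The lowest, at 12511358 to 12511659, reached 50.4. The summit of 1877 lay at the far end, 86.5 kb from the start, and no narrow peak lay within 10 kb of it; the nearest, at 12531455 to 12531908, was 14.2 kb away with a height of 73.7. Wide intervals divided the stretch, at heights from 336 to 1877.

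Narrow peaks gathered between 12517931 and 12528849 in that group, where 12 of the 30 lay. Their heights ran along the stretch as 66.7, 78.7, 104, 97.0, 379, 111, 72.0, 115, 61.04, 94.5, 185 and 104. High and low peaks were mixed, with no steady rise or fall along the stretch. Of the 37 gaps of the group, 16 were 500 bp or shorter. The median gap density was 64.1, the gap with the lowest mean stood at 1.84, and the longest gap, of 8396 bp, averaged 35.2.

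**Figure D5:**
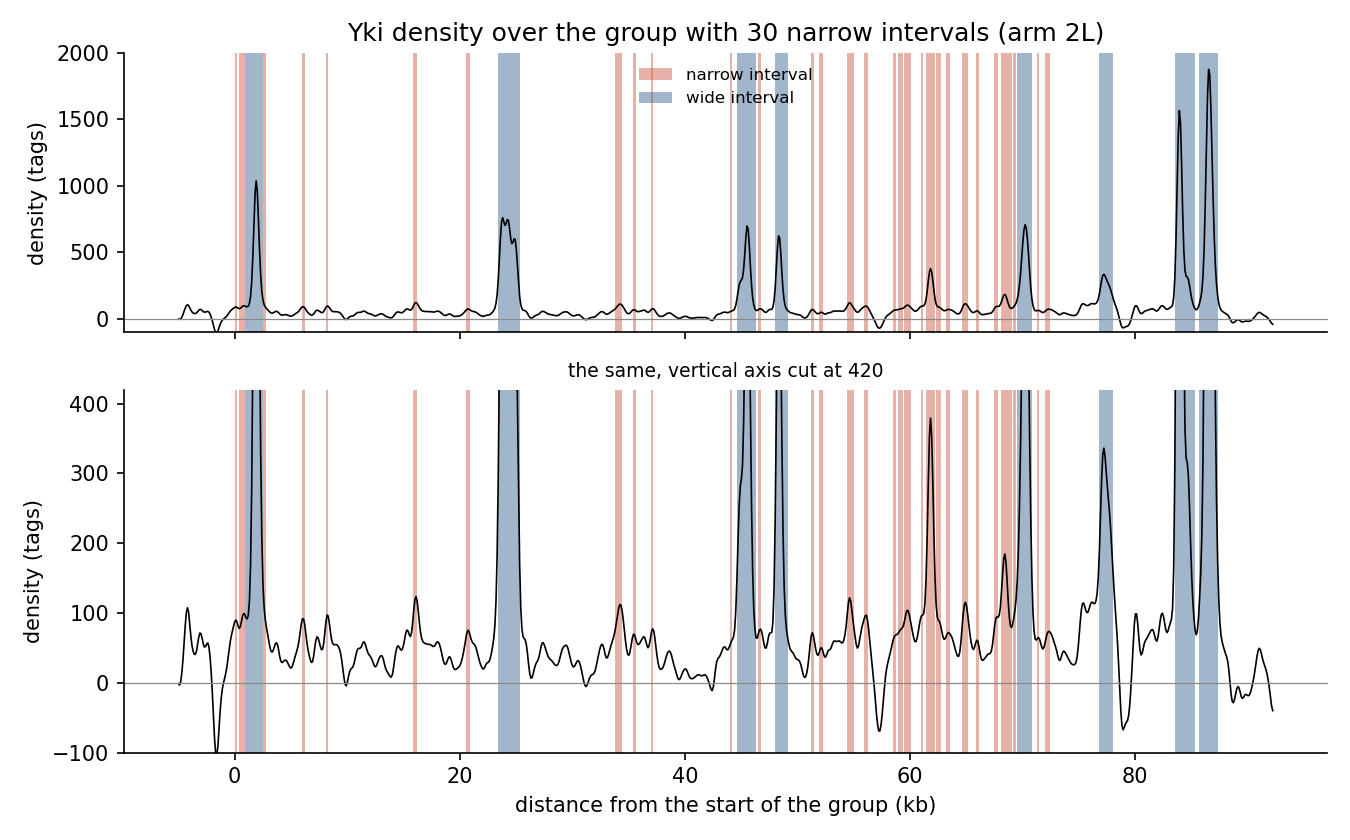
Yki density (tags) along the 2L group with 30 narrow (red) and 8 wide (blue) intervals, by distance from the start of the group in kb; the lower panel repeats the profile with the vertical axis cut at 420. Narrow intervals mark low rises with a median of 93.2 between wide summits of up to 1877, and the density between them is mostly above 0.

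The next groups differed in how high their narrow peaks were. On 3L, 26 narrow peaks lay between 3374085 and 3472609, the widest span of any group. They had a median of 101 (quartiles 85.7 and 119), the highest reached 210, and the summit was a wide interval of 710 near the middle, 43.9 kb from the start. On 2R, 21 narrow peaks lay between 1588777 and 1645405, with a median of 197 (quartiles 171 and 224), and 10 of them reached 200. The gaps of this group were also denser, with a median of 125.

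On 3R, 19 narrow peaks between 25562307 and 25616721 had a median of 158 and reached up to 655, beside a 5001 bp wide summit of 2333. On 2L, 19 between 470334 and 525157 had a median of 124, the highest reached 236 and the summit was 1730. On 3L, the median of 18 between 603789 and 663860 was 185 (quartiles 130 and 376). The 3L group at 603789 had the deepest gap, down to -520, and 6 of its 23 sampled gaps averaged below 0; the 3R group fell to -498, and 3 of its 24 did.

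In 4 of the 5 groups just named, narrow peaks near the summit had a lower median than distant ones. The medians within and beyond 10 kb were 155 and 209 in the 2R group, 140 and 173 in the 3R group, 144 and 256 in the 3L group at 603789, and 96.5 and 105 in the 3L group at 3374085. The reverse held in the 2L group at 470334, with 138 and 124. Each median rests on 6 to 19 peaks.

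The closest spacing belonged to a small group at 22782893 to 22786931 on 3L. Its 5 intervals were all narrow, from 226 to 416 bp wide, and lay within 4.04 kb at a median nearest distance of 416 bp. Heights ran from 74.3 to 92.1, with a counting SD of at least 8.09 at the highest. The gap density had a median of 74.7 and fell no lower than 15.1. Whether such a group is a set of sites or a single low stretch that was divided cannot be told apart from these files.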

How the data were processed

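The values are those of 3 ChIP-seq libraries of S2 cells, 2 with Yki antibody and 1 input, grouped by their titles. Per the labels' protocols, Nextera libraries were selected by size and run on a HiSeq2000. Tools listed in the submitters' processing notes are CASAVA 1.7.0, BWA and Bowtie, with build dm3; their roles, and how peaks were picked, are nowhere stated in the labels or headers. A deposited interval list holds starts and ends only, and the authors also deposited a density score every 100 bp that is smoothed and background-subtracted, per the file headers. The header joins 2 library codes with 1 input code, which match no sample label, so libraries were taken as pooled.

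Starts were raised by 1. Samples belonged to an interval if their centre lay inside it. Calculations used Python 3.11.15, numpy 2.4.6, pandas 2.3.3 and scipy 1.17.1, and were checked on simulated intervals. The members, bins and comparisons were chosen with earlier results of these data known. Groups named singly were the 6 with most narrow members, the closest-spaced and the widest, and the members in full were the 10 highest; neighbour heights within the first group were picked after they were seen. No genome or annotation of dm3 was used here, so no gene or sequence is named.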

Additional observations from a re-analysis of the deposited data

Results flagged for a closer look

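Dense groups of narrow intervals also occurred off the chromosome arms, in sequences that no comparison above uses, where they stood above the 0 level of the density. There were 4 such narrow intervals on the 3RHet scaffold, 13 on the unplaced sequence U and 7 on the mitochondrial genome, in 4 groups. Their heights ran from 86.9 on U to 12386 on 3RHet.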

How the results depend on the processing

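The number of narrow peaks in dense groups was 652 with midpoints under 5 kb apart, 1710 under 20 kb, 622 in groups of 8 or more and 499 after joining intervals at most 500 bp apart. The median nearest distance was 953 and 1510 bp with the first 2 of these settings, 2155.5 bp after joining, 571 bp between edges and 1066 bp without arm 3R. Median gap density was 44.9 for the lowest value of a gap, 37.1 in gaps of at least 1000 bp and 28.3 at least 500 bp from any interval. Stricter chaining shortens distances, joining removes the shortest gaps and leaving out samples near intervals lowers gap density by construction; for the arm the cause was not tested. The difference between peaks near and far from the summit stayed small (-3.08 after joining, -1.14 without 2R, otherwise 2.14 to 8.21). Grouped peaks stayed lower than isolated ones under all 10 alternatives tried (-19.6 to -11.6), although not on X taken alone. Chaining by edges and both restrictions of members in that comparison were chosen after seeing the data. Intervals of 95% decided which values moved, and 1.5 times for the count. No paired analysis was possible because both files pool the libraries, and for that reason no library could be left out. Read totals are not known, which gives no detection limit.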
